A study of Homo sapiens with 15 samples.

Results

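Interferon-stimulated genes were followed in HCC95 cells in which one of the transcription factors TP63, SOX2, KLF5 and GRHL2 was knocked down. The 44 genes were taken by symbol from a list of well-known interferon targets, without using their values, and all 44 were found among the 61544 genes of the deposited table. HCC95 is an established cell line from a human lung squamous cell carcinoma (LUSC), and the study asked what each of these factors controls in such cells. All 5 groups were HCC95 cells transfected with a small interfering RNA (siRNA), a short double-stranded RNA that directs the cleavage of a matching mRNA. The groups were siTP63b, siSOX2b, siKLF5b, siGRHL2a and the negative control siNC1, each with 3 bulk RNA-seq libraries and a single siRNA per factor. Every group was therefore exposed to double-stranded RNA, the control included, and the share of cells that took it up was not measured. Untransfected cells were not analysed here.

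Type I interferons bind a receptor on the cell surface, and the kinases JAK1 and TYK2 then act on STAT2. With IRF9 it belongs to the complex ISGF3, which binds the interferon-stimulated response element (ISRE) in promoters. Promoters that respond to interferon gamma often hold the gamma-activated site (GAS). The genes so induced encode sensors of foreign RNA, enzymes and binding proteins that act on viral RNA, membrane proteins that block virus entry or exit, and the ubiquitin-like ISG15 with its ligases. Many are also expressed at a low level in cells that have met no interferon, epithelial cells included.

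The promoter sequences below show the element by which these genes are usually recognised. They belong to 9 of the genes that differed between groups, and to ISG15, which passed the test in none of the comparisons. They are RefSeq sequences of GRCh38.p14, written 5′ to 3′ on the strand of the gene, and capitals mark matches to the ISRE core GAAANNGAA or to its reverse complement TTCNNTTTC.
IFI44 at chr1:78649752-78649788, plus strand: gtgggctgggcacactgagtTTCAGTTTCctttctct
IFIT1 at chr10:89392488-89392549, plus strand: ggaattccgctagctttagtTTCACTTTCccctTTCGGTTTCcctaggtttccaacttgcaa
IFIH1 at chr2:162318685-162318725, minus strand: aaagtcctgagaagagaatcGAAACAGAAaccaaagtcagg
OAS3 at chr12:112938442-112938473, plus strand: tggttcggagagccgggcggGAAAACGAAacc
PARP14 at chr3:122680790-122680838, plus strand: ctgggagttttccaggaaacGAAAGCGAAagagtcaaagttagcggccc
IFITM1 at chr11:313980-314028, plus strand: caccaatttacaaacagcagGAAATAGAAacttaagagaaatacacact
IFITM3 at chr11:320867-320932, minus strand: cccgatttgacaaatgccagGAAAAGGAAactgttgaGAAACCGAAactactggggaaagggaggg
RSAD2 at chr2:6865786-6865834, plus strand: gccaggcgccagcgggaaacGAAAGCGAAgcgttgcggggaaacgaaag
EPSTI1 at chr13:42992263-42992311, minus strand: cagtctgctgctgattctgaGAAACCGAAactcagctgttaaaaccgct
ISG15 at chr1:1013364-1013424, plus strand: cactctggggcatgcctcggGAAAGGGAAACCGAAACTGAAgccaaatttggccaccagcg

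RefSeq promoter windows, from 250 bases before to 50 bases after the start, were found for 37 of the 44 genes. The ISRE core was present on either strand in 25 of these 37 windows (67.6%), against 8.11% of all 35116 promoter windows. In 16 genes it was found more than once, with overlapping copies counted separately, as in the run of 3 in ISG15. The GAS core TTCNNNGAA was present in 10 of the 37 (27.0%), against 7.66% of all windows, and 6 genes held both. CMPK2, HERC6, IFI35, IRF1, IRF9, OAS1, PARP9, SAMD9L, SP100, STAT2, UBE2L6 and XAF1 had no ISRE core in this window, so both kinds of promoter occurred among the genes that moved in the tests below. A match describes letters and does not show a bound site.

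The deposited values were raw counts, and library totals ranged from 15655495 to 34229063. In the 3 libraries of the matching group, each targeted gene lay below all siNC1 libraries. Counts of TP63 scaled to the library size (CPM) were 350 to 389 in siTP63b against 662 to 692 in siNC1, and those of SOX2 were 7.09 to 10.1 in siSOX2b against 66.8 to 80.9. KLF5 was at 71.8 to 73.8 CPM in siKLF5b against 107 to 123, and GRHL2 at 90.8 to 91.9 CPM in siGRHL2a against 134 to 136. The columns of the table fall by their names into 2 sets, one with siNC1 and siKLF5b and one with siTP63b, siSOX2b and siGRHL2a. Even numbers made up 49.7% to 50.7% of the counts between 20 and 500 in the first set and 66.1% to 69.0% in the second. Whether reads or fragments were counted is not given in the sources used here, and with the counts of the second set halved 1 gene of the list rather than 3 passed both thresholds below in siTP63b against siSOX2b. Column set and knockdown cannot be told apart across the sets, so tests were made only within a set. Within the second set, TP63 was lower in siTP63b than in siSOX2b by a log2FC of -0.93 (SE 0.051, edgeR adjusted p = 3.22e-15) and than in siGRHL2a by -1.19 (SE 0.051, edgeR adjusted p = 1.86e-17). SOX2 was at 8.97 CPM on average in siSOX2b, 29.5 in siTP63b and 20.2 in siGRHL2a. For GRHL2 the differences within the set were smaller, as siTP63b was above siGRHL2a by a log2FC of 0.36 (SE 0.046, edgeR adjusted p = 3.04e-07) and siSOX2b by 0.14 (SE 0.047, edgeR adjusted p = 0.0313). All 10 squamous epithelial markers were tested and their summed level was 6720 to 11800 CPM. Of 10 immune markers, 7 had at most 3 counts in every library, and the summed level of the 10 was 34.3 to 37.0 CPM in siNC1, 21.6 to 24.5 in siKLF5b and 28.4 to 39.9 in the other groups. Nearly all of that sum was CD68, at 34.4 CPM on average in siNC1 and 22.6 in siKLF5b. Its span overlaps ENSG00000264772 on the same strand, which had 1508.5% of its counts. The part of the immune markers in the results was not tested.

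The interferon-stimulated genes were transcribed at a modest level in the control cells. Their summed level was 738 to 748 CPM in siNC1 and 677 to 696 in siKLF5b, 2 ranges that did not overlap. It was 822 to 837 CPM in siTP63b, 794 to 811 in siGRHL2a and 728 to 740 in siSOX2b, again without overlap within that column set. EIF2AK2 (PKR, the kinase that halts translation when it binds double-stranded RNA) and LGALS3BP (a secreted glycoprotein) supplied 31.7% to 36.9% of these sums. Without them the sums were 464 to 473 CPM in siNC1 and 446 to 467 in siKLF5b, which overlapped, and 556 to 572 in siTP63b, 537 to 541 in siGRHL2a and 490 to 494 in siSOX2b. The order of the 3 knockdowns in the second set was thus kept without the 2 most abundant genes, while the gap between siKLF5b and siNC1 was not.

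Per kilobase of annotated exon, the levels in siNC1 ran from 23.5 CPM for LGALS3BP, 17.6 for EIF2AK2, 15.7 for UBE2L6 (the ISG15-conjugating enzyme) and 12.2 for IFITM1 down to 0.00289 for OASL. The counting took in the whole span of every gene, so reads in introns are part of these values. At the low end, IFI44L, IFITM2, OASL and XAF1 never exceeded 8 counts in a library and did not pass the low-count filter, which left 40 genes for the tests. XAF1, an inhibitor of the apoptosis inhibitor XIAP, had counts of 0 in 14 of 15 libraries and 2 in the other. IFI44L had 6 counts or fewer per library, IFITM2 7 or fewer and OASL 8 or fewer. IFI44, ISG20, IRF7, RSAD2, CMPK2 and EPSTI1 were tested but were above the filter's cutoff of 0.361 CPM in only 11, 9, 12, 4, 11 and 3 of the 15 libraries, so their fold changes are imprecise.

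The spans of these genes often overlapped that of a neighbour. The span of 19 genes, 18 of them tested, overlapped another gene that had at least 10% as many counts. This rule compares total counts and does not measure shared reads. The overlap can be short, as GPATCH11 ends at chr2:37099244 and the span of EIF2AK2 begins at chr2:37099210. The other 22 tested genes are called genes without an overlapping gene below, although some overlap a gene with less than 10% of their counts. The counts of OAS1, OAS2 and OAS3 together came to 100% to 101% of those of ENSG00000257452, a gene on the other strand at chr12:112907628-113017751 that spans the cluster. IFITM1 held 97.7% to 99.6% of the counts of ENSG00000288681 and IFITM3 98.6% to 101% of those of ENSG00000251661. IFIT1, IFIT2 and IFIT3 lie within the span of LIPA on the opposite strand. The strand setting of the counting is not given in the sources used here, so reads of the pairs on opposite strands could not be assigned to one gene. The IFIT, IFITM, OAS, MX, SAMD9, DDX60 and HERC5 and HERC6 genes also have close paralogs, and their values are uncertain where reads could match more than one copy.

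Between the 2 column sets the list did not move as a block. Of the 40 tested genes, 9 were higher in all 9 libraries of siTP63b, siSOX2b and siGRHL2a than in all 6 of siNC1 and siKLF5b, 3 were lower and 28 overlapped. Over all genes tested, 14.5% were higher and 14.2% lower in this way. The clearest gap was that of DDX60L, a helicase-like relative of the RNA helicase DDX60, at 11.4 to 15.2 CPM in the first set and 31.6 to 45.8 in the second. LGALS3BP was at 73.9 to 85.9 CPM against 116 to 132. In the other direction, EIF2AK2 was at 152 to 199 CPM in the first set and 118 to 143 in the second. The RNA sensor IFIH1 (MDA5) was at 17.1 to 21.1 CPM against 9.22 to 13.6, and SP100, a nuclear body protein, at 39.9 to 43.3 against 29.6 to 36.5. RNA sensors and effectors of the list thus stood on both sides.

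**Figure D1:**
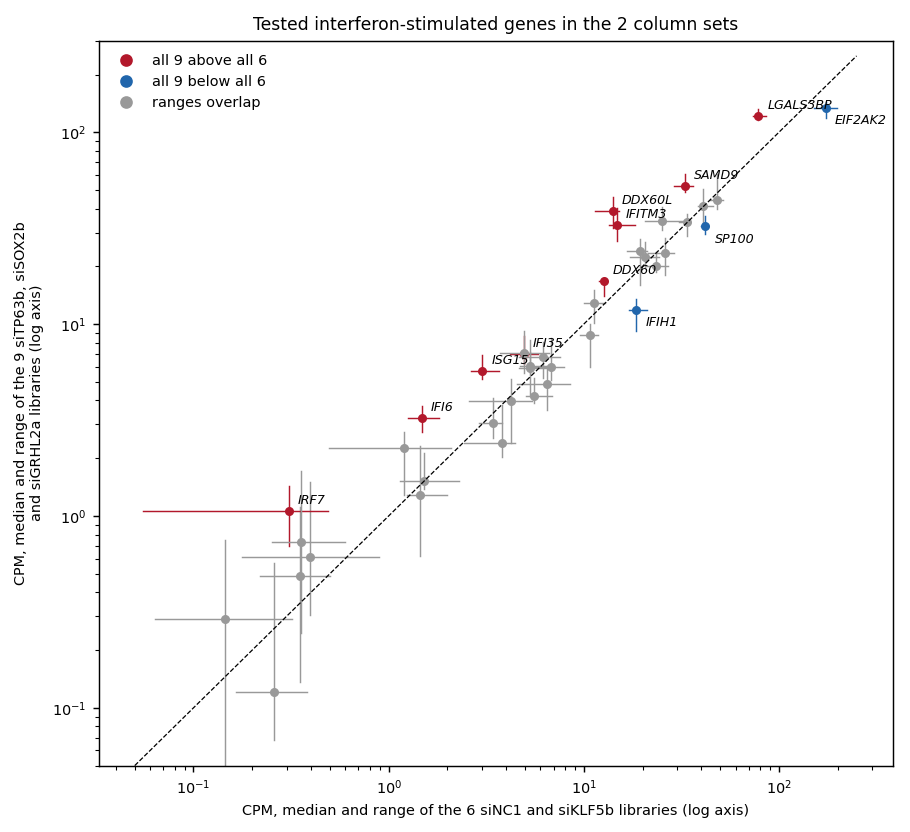
Each point is 1 of the 40 tested genes, at its median CPM in the 6 siNC1 and siKLF5b libraries (x axis) and in the 9 siTP63b, siSOX2b and siGRHL2a libraries (y axis), both log axes, with lines for the ranges and a dashed line of equality. The 12 named genes had ranges that did not overlap, and the line of RSAD2 runs off the lower edge because 1 library had 0 counts.

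Within the sets, few of the genes passed the study's thresholds of an adjusted p below 0.05 and an absolute log2 fold change (log2FC) above 0.75, and more passed the adjusted p alone. In siKLF5b against siNC1, 1 gene was higher and 1 lower by both thresholds, against 1.89% and 1.37% of all genes tested. By the adjusted p alone, 4 rose (10% of the 40, background 10.3%) and 7 fell (17.5%, background 12.9%), so the list stood near the background in both directions. In siTP63b against siSOX2b, 3 were higher and 0 lower by both thresholds (background 3.88% and 2.82%). Of these 3, RSAD2 and EPSTI1 passed the low-count filter with 4 and 3 libraries above its cutoff, mostly those of siTP63b, and without the filter 1 call was left, so the count of 3 supports nothing about the list. By the adjusted p alone 14 rose and 1 fell, RSAD2 and EPSTI1 among the 14. These 14 were 35.0% of the 40 against a background of 16.4%, and the 1 that fell was 2.5% against 15.4%. The 35.0% counts RSAD2 and EPSTI1, which entered the test mostly through the group where they were high, and is raised by them. In siTP63b against siGRHL2a, 1 was higher and 0 lower by both thresholds (background 2.18% and 3.21%), with 6 rising (15%, background 13.6%) and 3 falling (7.5%, background 13.4%) by the adjusted p alone. In siSOX2b against siGRHL2a, 0 genes passed both thresholds with edgeR (background 1.05% higher and 2.27% lower) and 0 with DESeq2. An unadjusted p below 0.05 was met by 11 of the 40, and the share of all genes at that level was not computed. By the adjusted p alone 0 rose (background 11.8%) and 7 fell (17.5%, background 12.7%). Those with siTP63b, siSOX2b or siGRHL2a share libraries with one another and are not independent.

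**Figure D2:**
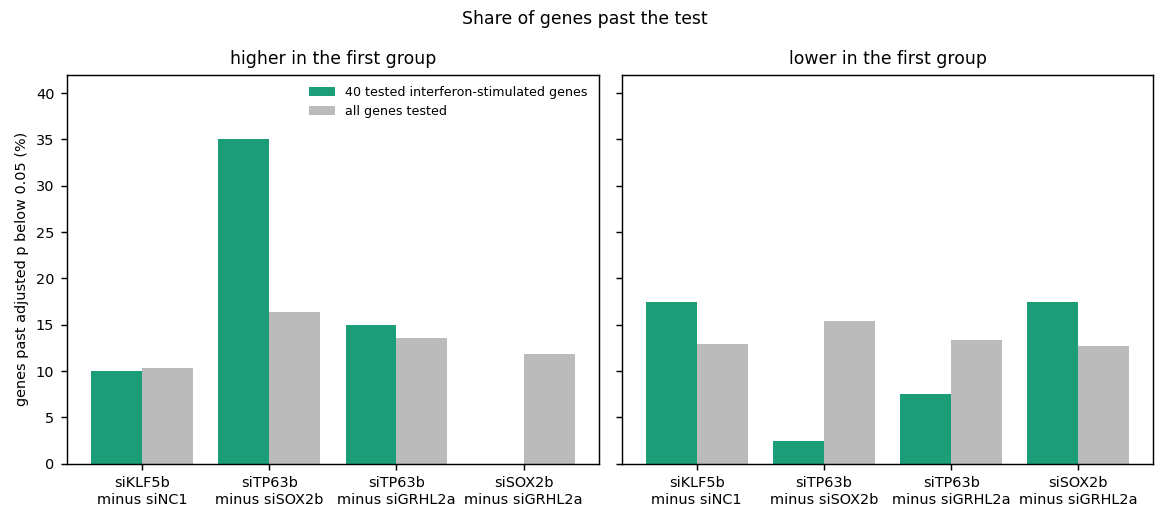
Bars give the percent of the 40 tested interferon-stimulated genes (green) and of all tested genes (grey) past an adjusted p below 0.05 in each comparison, higher (left) or lower (right) in the first group. The bar of siTP63b against siSOX2b stands at 35.0% for the list and 16.4% for all genes on the left, and at 2.5% and 15.4% on the right. RSAD2 and EPSTI1, which passed the low-count filter mostly through siTP63b, are counted in the 35.0%.

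The median log2FC of the 40 genes was 0.0751 in siKLF5b against siNC1, where 23 were above 0 although more genes fell than rose by the adjusted p, beside a median of -0.00973 over all genes. It was 0.176 in siTP63b against siSOX2b, where 32 of 40 were above 0, beside 0.000595 and 50.1% of all genes above 0. It was 0.0371 in siTP63b against siGRHL2a, with 23 above 0, and -0.0937 in siSOX2b against siGRHL2a, with 9 above 0 and 31 below, beside 47.5% of all genes above 0. The 0.0371 had no stable sign, since it was -0.0162 without siTP63b replicate 1 and -0.0288 over the 22 genes without an overlapping gene. All of these medians were small beside the spread of the single genes, which ran from -0.883 to 1.35 in siKLF5b against siNC1 and from -0.49 to 1.74 in siTP63b against siSOX2b.

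**Figure D3:**
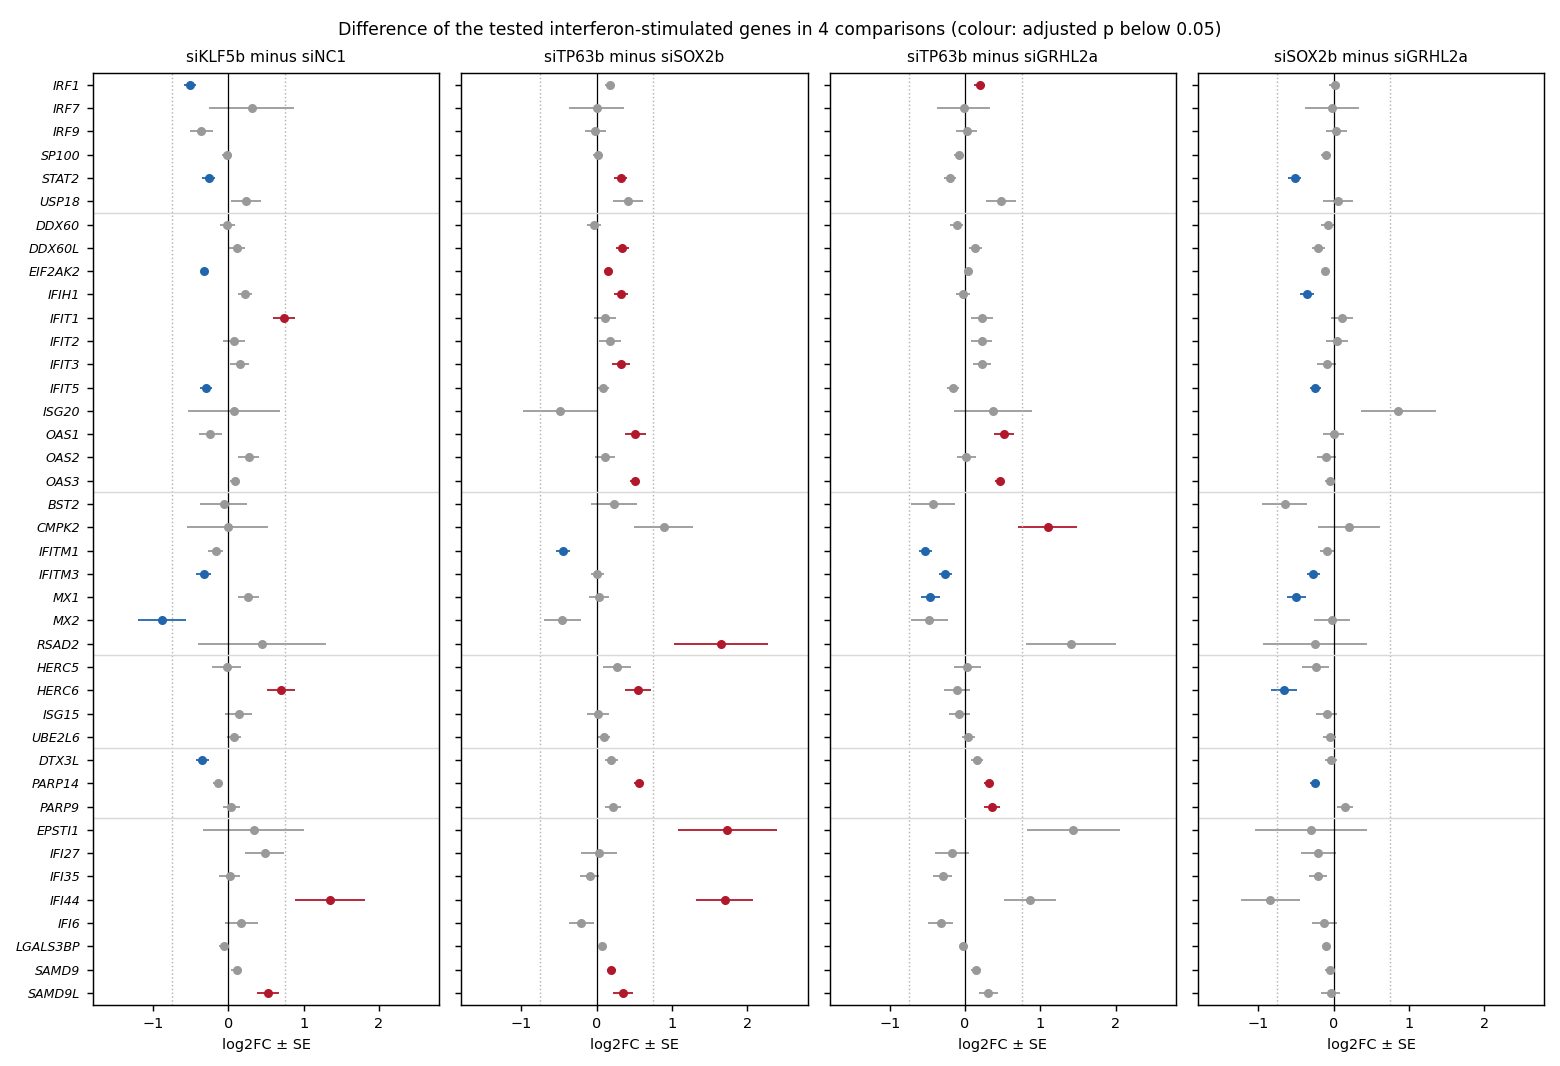
The log2FC with its SE is plotted for the 40 tested genes in the 4 comparisons, grouped from top to bottom as regulators, RNA sensing and RNA-directed effectors, membrane and entry or exit restriction, ISG15 conjugation, ADP-ribosylation and others. Red and blue mark genes higher and lower at an adjusted p below 0.05, and dotted lines mark a log2FC of 0.75 in either direction. Red points are most frequent in siTP63b minus siSOX2b (14), and siSOX2b minus siGRHL2a has 7 blue points and 0 red ones.

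In siKLF5b against siNC1 genes of the list moved in both directions. In bulk libraries, fewer expressing cells and less RNA per cell cannot be told apart. Of 6 regulators, 2 fell, namely IRF1 and STAT2, and 0 rose. Of 12 RNA-directed genes, IFIT1 rose while EIF2AK2 and IFIT5 fell. Of 4 genes of ISG15 conjugation HERC6 rose, of 3 genes of ADP-ribosylation DTX3L fell, of 7 membrane and restriction genes IFITM3 and MX2 fell, and of the 8 others IFI44 and SAMD9L rose. These groups are small, and over all genes 10.3% rose and 12.9% fell in this comparison.

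IRF1, a transcription factor that binds ISRE-like sites and is itself induced by interferon, had the lowest adjusted p of the list. Its level was 32.3, 28.7 and 29 CPM in the siNC1 libraries and 21.5, 21.1 and 20.5 in siKLF5b, without overlap, and it fell by 0.51 on the log2 scale (SE 0.078, edgeR adjusted p = 7.92e-06), to 70.1% of the control. Its span overlaps ENSG00000283782, on the other strand, which had a log2FC of 0.07. EIF2AK2 was at 189, 195 and 199 CPM in siNC1 and 160, 155 and 152 in siKLF5b. It fell by 0.32 (SE 0.05, edgeR adjusted p = 1.1e-05), to 80.3%, in all 3 libraries, and the overlapping GPATCH11 had a log2FC of 0.03. IFIT5, which binds RNA with a triphosphate end, went from 25.1, 25.7 and 27.0 CPM to 21.6, 20.9 and 20.9 and fell by 0.30 (SE 0.079, edgeR adjusted p = 0.00544). DTX3L, the ubiquitin ligase that pairs with PARP9, went from 22.4, 21.7 and 24.2 CPM to 17.3, 19.3 and 17.2. It fell by 0.34 (SE 0.088, edgeR adjusted p = 0.00364), also without overlap between the groups. These 4 decreases were small but were seen in every library.

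IFIT1, which binds viral RNA that lacks the methylation of a cellular cap, moved the other way. It was at 5.14, 4.55 and 5.12 CPM in siNC1 and 8.55, 8.42 and 7.76 in siKLF5b, a log2FC of 0.74 (SE 0.15, edgeR adjusted p = 0.000396) and a fold of 1.67. Its counts were 2.24% to 6.80% of those of LIPA, which had a log2FC of 0.09 in the same comparison. Of its neighbours in the cluster, IFIT2 and IFIT3 did not pass the test. IFIT2 was at 5.85, 5.05 and 5.70 CPM in siNC1 and 5.12, 6.90 and 5.41 in siKLF5b, and IFIT3 at 9.57 to 10.9 against 10.7 to 11.8. IFIT5, in the same cluster, fell by 0.30 as given above. HERC6, a HECT-type ligase of the ISG15 family of ligases, was at 3.68, 2.58 and 3.10 CPM and 5.44, 5.01 and 4.83. Its log2FC was 0.70 (SE 0.19, edgeR adjusted p = 0.00537). Its close relative HERC5, the main ISG15 ligase of human cells, was at 3.18 to 3.50 CPM in siNC1 and 2.92 to 3.8 in siKLF5b, so the groups overlapped. IFIT1 and HERC6 thus rose beside paralogs (IFIT2, IFIT3 and HERC5) that did not pass the test, and IFIT1 also beside IFIT5, which fell.

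IFI44 and MX2 passed both thresholds but rested on few reads. IFI44, an interferon-inducible cytoplasmic protein, was at 0.177, 0.274 and 0.336 CPM in siNC1 and 0.732, 0.452 and 0.890 in siKLF5b. The groups did not overlap and the log2FC was 1.35 (SE 0.46, edgeR adjusted p = 0.0325). Its paralog IFI44L, not tested, was at 0.0419 to 0.11 CPM and 0.247 to 0.274, at most 6 counts in a library. MX2, a dynamin-like GTPase that restricts HIV-1, was at 1.20, 2.09 and 1.34 CPM in siNC1 and 0.869, 0.493 and 1.21 in siKLF5b. These groups overlapped, with a log2FC of -0.88 (SE 0.32, edgeR adjusted p = 0.0403). MX1, by contrast, was at 5.58 to 7.23 CPM against 6.42 to 7.89 and did not pass. The IFI44 call was lost when siNC1 replicate 1 (log2FC 1.12, edgeR adjusted p = 0.149), siNC1 replicate 2 (1.37, edgeR adjusted p = 0.0714), siKLF5b replicate 1 (1.27, edgeR adjusted p = 0.0993) or siKLF5b replicate 3 (1.14, edgeR adjusted p = 0.128) was left out. The MX2 call was lost without siNC1 replicate 2 (log2FC -0.63, edgeR adjusted p = 0.229), siKLF5b replicate 1 (-0.94, edgeR adjusted p = 0.0804) or siKLF5b replicate 2 (-0.58, edgeR adjusted p = 0.274).

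The comparison with the most genes past the adjusted p in one direction was siTP63b against siSOX2b, where 14 were higher, RSAD2 and EPSTI1 included. In comparisons between knockdowns, rose and fell mean higher and lower in the first group named. No control group was in that column set, so such a gene may equally have moved in the second group. Of 12 RNA-directed genes, 6 rose and 0 fell, which is 50% against a background of 16.4% higher, namely DDX60L, EIF2AK2, IFIH1, IFIT3, OAS1 and OAS3. Groups of this kind are small and were set with earlier results of these data known, so the 50% is a description only. STAT2 alone rose among 6 regulators, HERC6 among 4 genes of ISG15 conjugation and PARP14 among 3 of ADP-ribosylation. RSAD2 rose and IFITM1 fell among 7 membrane and restriction genes, and EPSTI1, IFI44, SAMD9 and SAMD9L rose among the 8 others. Of the 22 genes without an overlapping gene of at least 10% as many counts, 8 passed the adjusted p, all of them higher and EPSTI1 among them. Over all genes tested, 16.4% were higher and 15.4% lower.

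PARP14, a mono-ADP-ribosyltransferase, was at 50.2, 50.8 and 49.9 CPM in siTP63b and 34.6, 35.5 and 32.1 in siSOX2b. The groups lay far apart, with a log2FC of 0.56 (SE 0.062, edgeR adjusted p = 1.55e-08). OAS3, the largest of the synthases whose oligoadenylates activate RNase L, was at 60.8, 59.5 and 60.4 CPM against 44.1, 39.6 and 43.7. Its log2FC was 0.51 (SE 0.06, edgeR adjusted p = 6.38e-08), and the antisense ENSG00000257452, which shares these reads, had 0.47. DDX60L was at 40.3, 41.6 and 45.8 CPM against 35.3, 31.6 and 34.1, a log2FC of 0.34 (SE 0.085, edgeR adjusted p = 0.00243), while the overlapping PALLD had -0.23. STAT2, the subunit of ISGF3 that carries its activation domain, was at 26.6, 23.5 and 22.1 CPM against 21.2, 18.6 and 18.1. Its log2FC was 0.32 (SE 0.084, edgeR adjusted p = 0.00369), and without siTP63b replicate 1 it was 0.23 (edgeR adjusted p = 0.0529), past the threshold no longer. These 4 genes rose by a fold of 1.25 to 1.47.

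IFITM1, a membrane protein that blocks virus entry at the cell surface, was the exception. It was at 18.0, 16.0 and 21.6 CPM in siTP63b and 24.1, 27.6 and 23.9 in siSOX2b, without overlap, and fell by 0.44 (SE 0.091, edgeR adjusted p = 0.000296). The gene ENSG00000288681 on the same strand had the same reads and a log2FC of -0.44. Its relative IFITM3 was at 28.1 to 34.3 CPM against 27.2 to 32.7, with a log2FC of 0.01 for the gene that overlaps it.

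The 3 genes past both thresholds in this comparison were all of low level. IFI44 was at 1.5, 1.02 and 1.07 CPM in siTP63b and 0.306, 0.364 and 0.442 in siSOX2b, without overlap. Its log2FC was 1.70 (SE 0.38, edgeR adjusted p = 0.000716), a fold of 3.25, and it passed under all 15 alternatives run for it, between 1.5 and 1.82. RSAD2 (viperin, a radical SAM enzyme that makes a chain-terminating nucleotide) was at 0.653, 0.748 and 0.356 CPM against 0.183, 0.121 and 0.265, a log2FC of 1.65 (SE 0.63, edgeR adjusted p = 0.0434). EPSTI1, named for epithelial and stromal interaction, was at 0.522, 0.068 and 0.570 CPM against 0.122, 0.121 and 0.0885, so that 1 siTP63b library lay below all of siSOX2b (log2FC 1.74, SE 0.65, edgeR adjusted p = 0.0404). The RSAD2 call was lost without siSOX2b replicate 1 (log2FC 1.65, edgeR adjusted p = 0.104), 2 (1.40, edgeR adjusted p = 0.149) or 3 (1.91, edgeR adjusted p = 0.0563). The EPSTI1 call was lost without siTP63b replicate 1 (1.44, edgeR adjusted p = 0.15) or 3 (1.37, edgeR adjusted p = 0.17) and without any of the 3 siSOX2b libraries (1.62 to 1.80, edgeR adjusted p = 0.0864 to 0.106). Both were also past the test no longer with DESeq2.

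Against siGRHL2a, siTP63b showed differences in both directions. OAS1 and OAS3 rose among the RNA-directed genes, PARP9 and PARP14 among those of ADP-ribosylation, IRF1 among the regulators and CMPK2 among the membrane and restriction genes, while IFITM1, IFITM3 and MX1 of that last group fell. Of the 9 genes, 8 overlap another gene with at least 10% as many counts, and PARP14 alone does not.

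OAS3 was at 60.8, 59.5 and 60.4 CPM in siTP63b and 41.9, 43.2 and 46.5 in siGRHL2a, a log2FC of 0.46 (SE 0.06, edgeR adjusted p = 4.13e-07). OAS1, its shorter relative, was at 8.22, 8.02 and 7.41 CPM against 5.34, 5.67 and 5.54, a log2FC of 0.52 (SE 0.14, edgeR adjusted p = 0.0041). OAS2, which lies in the same cluster, was at 5.85 to 7.18 CPM against 5.86 to 6.55, and these groups overlapped. PARP14 was at 49.9 to 50.8 CPM against 39.1, 41.1 and 41.1, a log2FC of 0.32 (SE 0.061, edgeR adjusted p = 0.000169). PARP9, an inactive relative that works with DTX3L, was at 14.3, 15.1 and 14.1 CPM against 10.8, 10.1 and 12.9. Its log2FC was 0.36 (SE 0.1, edgeR adjusted p = 0.00946), and 0.29 without siGRHL2a replicate 2 (edgeR adjusted p = 0.0668). IRF1 was at 36.6 to 40.7 CPM against 33.2 to 34.5.

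Among the genes that fell, IFITM1 was at 18.0, 16.0 and 21.6 CPM in siTP63b and 25.1, 27.3 and 27.8 in siGRHL2a. It fell by 0.53 (SE 0.09, edgeR adjusted p = 3.25e-05), to 69.3%. MX1, a GTPase that blocks the replication of influenza and other viruses, was at 5.94, 5.57 and 5.98 CPM against 8.06, 8.47 and 7.56 and fell by 0.46 (SE 0.12, edgeR adjusted p = 0.00526). IFITM3, which acts in endosomes, was at 28.3, 28.1 and 34.3 CPM against 34.5, 34.3 and 40.1. These groups met at 34.3, with a log2FC of -0.26 (SE 0.084, edgeR adjusted p = 0.0187). The IFITM3 call was lost without siTP63b replicate 1 (-0.21, edgeR adjusted p = 0.112), siTP63b replicate 2 (-0.20, edgeR adjusted p = 0.116) or siGRHL2a replicate 3 (-0.17, edgeR adjusted p = 0.178). CMPK2, a mitochondrial nucleotide kinase whose gene overlaps RSAD2, passed both thresholds. It was at 0.914, 1.36 and 1.71 CPM in siTP63b and 0.580, 1.02 and 0.245 in siGRHL2a, overlapping groups, with a log2FC of 1.10 (SE 0.39, edgeR adjusted p = 0.0336). Without siTP63b replicate 2, siTP63b replicate 3, siGRHL2a replicate 1 or siGRHL2a replicate 3 that call was lost (0.73 to 1.09, edgeR adjusted p = 0.0699 to 0.177), as it was with DESeq2.

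In siSOX2b against siGRHL2a, the genes past the adjusted p were all lower in siSOX2b. STAT2 was at 21.2, 18.6 and 18.1 CPM in siSOX2b and 26.8, 28.1 and 28.1 in siGRHL2a, and fell by 0.52 (SE 0.082, edgeR adjusted p = 1.7e-05), to 69.9%. MX1 was at 5.11, 5.88 and 6.19 CPM against 8.06, 8.47 and 7.56 and fell by 0.49 (SE 0.12, edgeR adjusted p = 0.00358). The genes ENSG00000228318 and MX1 overlap on opposite strands, and the first had a log2FC of -0.63. HERC6 was at 2.63, 3.64 and 2.39 CPM against 4.64, 3.98 and 5.17 and fell by 0.66 (SE 0.17, edgeR adjusted p = 0.00543). IFIH1, whose product senses long double-stranded RNA, was at 10.4, 9.22 and 9.95 CPM against 12.7, 13.6 and 11.4 and fell by 0.35 (SE 0.092, edgeR adjusted p = 0.00483). None of these 4 had overlapping groups. PARP14 was at 32.1 to 35.5 CPM against 39.1 to 41.1 (log2FC -0.24, SE 0.062, edgeR adjusted p = 0.00367).

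The remaining calls of that comparison each hung on single libraries. IFIT5 was at 20.1, 18.6 and 19.9 CPM in siSOX2b and 23.8, 23.2 and 22.2 in siGRHL2a (log2FC -0.24, SE 0.076, edgeR adjusted p = 0.0179). Its log2FC was -0.20 without siSOX2b replicate 2 (edgeR adjusted p = 0.104) and -0.21 without siGRHL2a replicate 1 (edgeR adjusted p = 0.0749). IFITM3 was at 27.2, 30.6 and 32.7 CPM against 34.5, 34.3 and 40.1 (log2FC -0.27, SE 0.085, edgeR adjusted p = 0.0179). It was -0.19 without siSOX2b replicate 1 (edgeR adjusted p = 0.162) and -0.18 without siGRHL2a replicate 3 (edgeR adjusted p = 0.174). Both genes nonetheless had groups that did not overlap.

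Set side by side, the 3 knockdowns of the second column set ordered some genes in the same way against both others. OAS1, OAS3 and PARP14 were higher in siTP63b than in siSOX2b and than in siGRHL2a at an adjusted p below 0.05, and IFITM1 was lower. STAT2, IFIH1, HERC6 and PARP14 were lower in siSOX2b than in both other knockdowns. IFITM3 and MX1 were higher in siGRHL2a than in both. PARP14 was therefore graded, at 50.3 ± 0.455 CPM in siTP63b, 40.4 ± 1.13 in siGRHL2a and 34.1 ± 1.74 in siSOX2b (SD, n = 3 each). In the other column set it was at 40.8 to 45.9 CPM in siNC1 and 38.4 to 41.3 in siKLF5b. Each pair of these comparisons shares a group of libraries, so the repeated calls are not independent. The share of all genes that met the same rule against both others was not computed. These counts are therefore a description of single genes and not a result about the list.

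**Figure D4:**
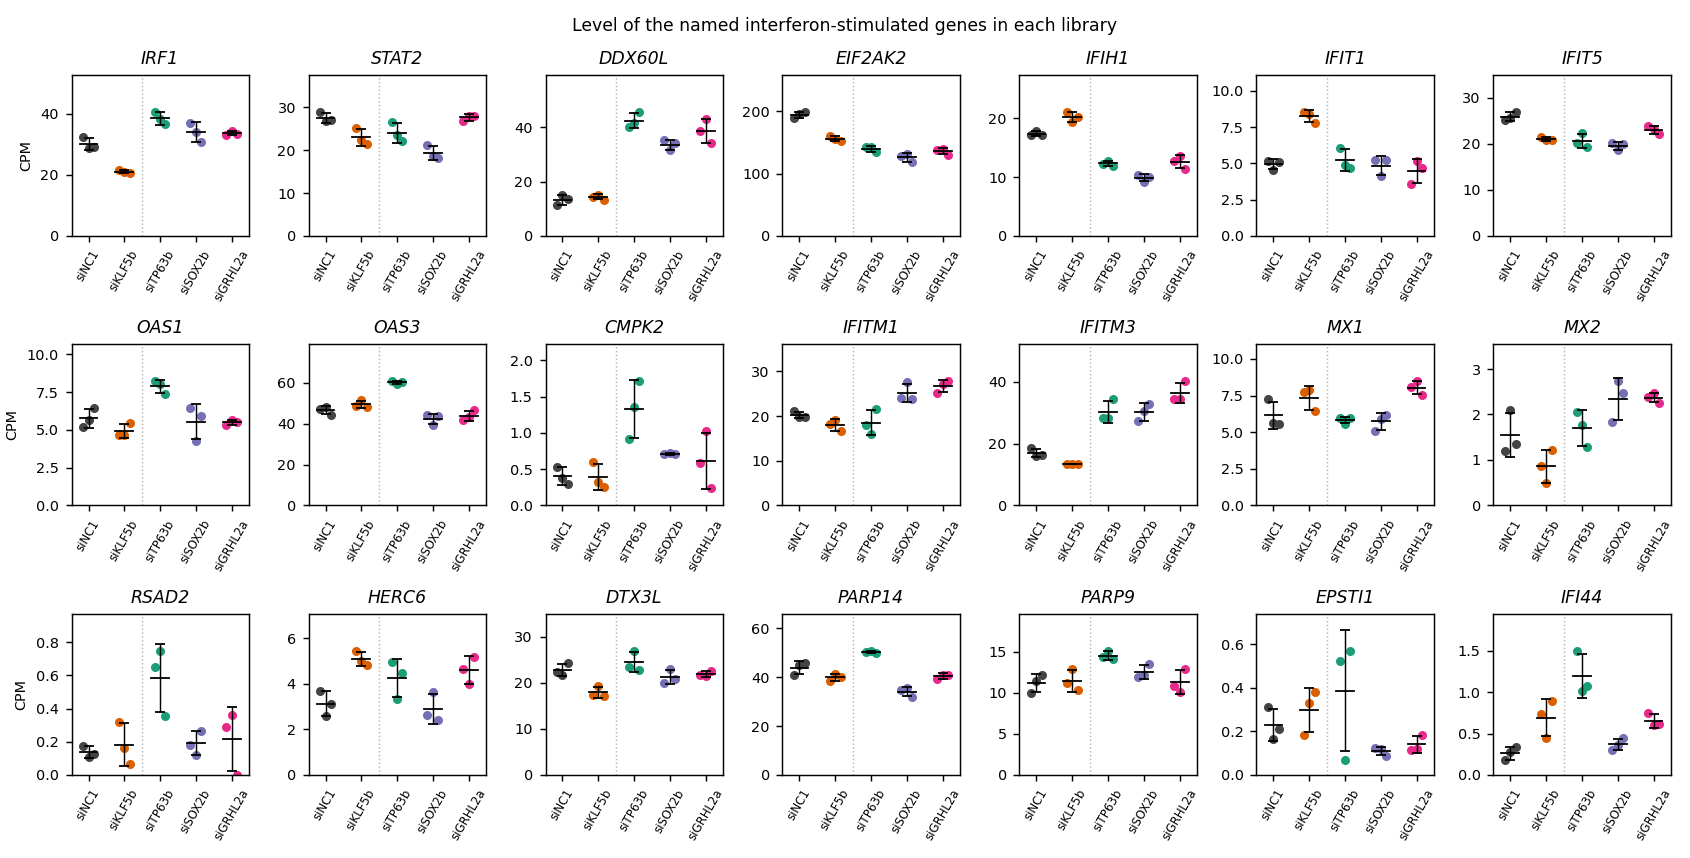
CPM in each library (points), with the group mean and SD (bars, n = 3), is plotted for the 21 genes with values in every library in the text, on linear axes from 0. A dotted line parts the 2 column sets, and PARP14 shows the 3 separate levels of siTP63b, siGRHL2a and siSOX2b while IFI44 is at most 1.5 CPM throughout.

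The other tested genes passed the adjusted p in none of the 4 comparisons. They were IRF7, IRF9, SP100 and the ISG15-removing protease USP18 among the regulators, and DDX60, IFIT2, ISG20 and OAS2 among the RNA-directed genes. BST2 (tetherin, which holds budding virus at the membrane), ISG15, UBE2L6, HERC5, IFI6, IFI27, IFI35 and LGALS3BP were the rest. ISG15 was at 2.64 to 3.55 CPM in siNC1, 2.99 to 3.66 in siKLF5b, 5.16 to 6.66 in siTP63b, 5.26 to 6.94 in siSOX2b and 5.61 to 6.55 in siGRHL2a, so that within each column set the groups overlapped. UBE2L6 was at 28.9 to 37.3 CPM in all 15 libraries. With 3 libraries a group the SE of log2FC had a median of 0.13 to 0.14 over the 40 genes in the 4 comparisons, which limits how small a difference could be detected. IRF1, IFIT3, SAMD9 and SAMD9L, named above among the calls, completed the list with IFIT3 at 9.17 to 9.99 CPM in siTP63b against 5.96 to 8.73 in siSOX2b, SAMD9 at 55.8 to 60.6 against 48.8 to 52.3 and SAMD9L at 7.57 to 9.24 against 5.57 to 7.21, none of which overlapped.

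The ligands of the pathway were nearly silent. Of 21 type I, II and III interferon genes in the table, 17 had at most 3 counts in every library and 10 of these had 0 in all, and the 21 together came to 0.522 to 1.59 CPM. The 1 ligand tested passed in none of the comparisons. All 17 receptor and signalling genes were tested, and 0 passed both thresholds with edgeR in any comparison, while by the adjusted p alone 7, 8, 9 and 3 did in siKLF5b against siNC1, siTP63b against siSOX2b, siTP63b against siGRHL2a and siSOX2b against siGRHL2a. Of these, 2, 3, 3 and 1 were higher, which is 11.8%, 17.6%, 17.6% and 5.88% of the 17 against 10.3%, 16.4%, 13.6% and 11.8% of all genes. The other 5, 5, 6 and 2 were lower, which is 29.4%, 29.4%, 35.3% and 11.8% against 12.9%, 15.4%, 13.4% and 12.7%.

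Sensors of nucleic acid and their helpers were the next list. Of 19 tested in siKLF5b against siNC1, 2 rose (10.5%, background 10.3%) and 5 fell (26.3%, background 12.9%) by the adjusted p, and 1 passed both thresholds. That was DICER1, the RNase that cuts double-stranded RNA into small RNAs, which fell by 1.12 (SE 0.058, edgeR adjusted p = 2.45e-15). In siTP63b against siSOX2b, 9 rose (47.4%, background 16.4%) and 1 fell (5.26%, background 15.4%), with DICER1 higher by a log2FC of 0.95 (SE 0.057, edgeR adjusted p = 1.66e-14), DDX58 (RIG-I, which senses triphosphate-ended RNA) by 0.79 (SE 0.15, edgeR adjusted p = 8.02e-05) and AGO2, the small-RNA-guided nuclease, lower by -0.79 (SE 0.072, edgeR adjusted p = 2.22e-10). DDX58 was also higher in siTP63b than in siGRHL2a, by 0.83 (SE 0.15, edgeR adjusted p = 4.25e-05), where 5 of the 19 rose (26.3%, background 13.6%) and 3 fell (15.8%, background 13.4%). The span of DDX58 overlaps ENSG00000288684 on the same strand, which had 661.3% of its counts. That gene had a log2FC of 0.04 in siTP63b against siSOX2b and 0.20 in siTP63b against siGRHL2a, so the reads of DDX58 are uncertain. In siSOX2b against siGRHL2a, 2 rose (10.5%, background 11.8%) and 6 fell (31.6%, background 12.7%), and 0 passed both thresholds.

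Of 34 further interferon-stimulated genes tested, which the 44 leave out, 6 rose (17.6%, background 10.3%) and 14 fell (41.2%, background 12.9%) in siKLF5b against siNC1 by the adjusted p. Past both thresholds were the lysosomal LAMP3 (log2FC -0.89, SE 0.094, edgeR adjusted p = 1.23e-08), the apolipoproteins APOL6 (-0.83, SE 0.087, edgeR adjusted p = 1.27e-08) and APOL1 (-0.88, SE 0.14, edgeR adjusted p = 1.98e-05) and, higher, SLFN11, a restriction factor that also blocks replication forks (0.97, SE 0.12, edgeR adjusted p = 2.09e-07). In siTP63b against siSOX2b 9 rose (26.5%, background 16.4%) and 7 fell (20.6%, background 15.4%), with SLFN11 higher by 1.01 (SE 0.12, edgeR adjusted p = 3.02e-08). In siTP63b against siGRHL2a 12 rose (35.3%, background 13.6%) and 2 fell (5.88%, background 13.4%), and 0 passed both thresholds. In siSOX2b against siGRHL2a 6 rose (17.6%, background 11.8%) and 5 fell (14.7%, background 12.7%), and the death ligand TNFSF10 (TRAIL) fell by 0.77 (SE 0.11, edgeR adjusted p = 2.01e-06). Of 9 tested targets of interferon gamma, the guanylate-binding protein GBP4 was higher in siTP63b than in siSOX2b by 1.02 (SE 0.23, edgeR adjusted p = 0.000682) and than in siGRHL2a by 1.23 (SE 0.23, edgeR adjusted p = 8.83e-05). By the adjusted p, 0 of these 9 rose and 1 fell in siKLF5b against siNC1, 2 rose and 1 fell in siTP63b against siSOX2b, 2 rose and 0 fell in siTP63b against siGRHL2a, and 1 rose and 0 fell in siSOX2b against siGRHL2a. With 9 genes, 1 gene is 11.1% and 2 genes are 22.2%, against the background shares given above.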

How the data were processed

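RNA-seq was measured in 15 libraries of HCC95 cells, 3 for each of 5 siRNA groups, and groups were taken from the sample titles. The authors selected polyadenylated RNA, used HISAT2 2.2.1 to align the paired-end reads to hg38, counted uniquely aligned reads on Gencode release 40 genes with featureCounts 2.0.1 and deposited raw counts. Strand and fragment settings are not given in the sources used here. The methods speak of independent experiments in general without naming the RNA-seq libraries, so p-values measure only the spread between these libraries, which may be technical. All 15 count columns were matched by name and 0 were left. The counted length of all 61544 genes was their whole span.

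The counts were tested in R 4.3.3 with edgeR 4.0.16 (TMM, filterByExpr by group, one quasi-likelihood fit of the 15 libraries, with Benjamini-Hochberg adjustment over 25108 genes). Called meant an absolute log2FC above 0.75 with an adjusted p below 0.05, and counts at the adjusted p alone are also given. SE was the absolute log2FC over the square root of the F statistic. CPM used TMM-scaled totals. Exon lengths came from Gencode release 44. Library totals give the depth, and intervals were not computed because replicates were available. The steps were tested on simulated counts. Values in every library were given for the genes past both thresholds and, up to 8 per comparison, those of smallest adjusted p. Of each pathway list up to 5 genes past both thresholds were named, and other genes were given by ranges. Genes and lists were chosen with earlier results of these data known. IRF1, IFIT3, SAMD9 and SAMD9L ranges and paralogs of named genes were added after values were seen. Alternatives were RLE and upper-quartile scaling, no low-count filter, a filter of 10 counts in all libraries, a replicate block, the 2 compared groups or the same column set alone, DESeq2 1.42.0, no log2FC threshold or 1, halved counts in the second column set, genes without an overlapping gene, and each library left out. The count by adjusted p alone was added after seeing the data.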

Additional observations from a re-analysis of the deposited data

How the results depend on the processing

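The counts of calls by both thresholds rested on low-count genes and moved with most settings. Those by adjusted p alone fell among genes without an overlapping gene, most in siTP63b against siGRHL2a, and with some libraries left out. In siKLF5b against siNC1, 2 genes were called, 1 with at least 10 counts in every library, without a low-count filter, with DESeq2 or with a log2FC above 1, and 11 without a log2FC threshold. In siTP63b against siSOX2b, 3 were called, 0 with at least 10 counts in every library, 1 without a filter, in the same column set alone, with DESeq2 or with halved counts, and 15 without a threshold. In siTP63b against siGRHL2a, 1 was called, 0 with at least 10 counts in every library, in the 2 groups alone, with DESeq2 or among genes without an overlapping gene, 2 without a filter and 9 without a threshold. In siSOX2b against siGRHL2a, 0 were called, and 7 without a threshold. Leaving out 1 library gave 0 to 3, 1 to 3, 0 to 2 and 0 to 1 calls in these comparisons in turn. The 0 calls in siKLF5b against siNC1 came without siNC1 replicate 2 or siKLF5b replicate 1, with 1 call without siKLF5b replicate 2. The 1 call in siTP63b against siSOX2b came without siSOX2b replicate 1 or 3. The 0 calls in siTP63b against siGRHL2a came without siTP63b replicate 3, siGRHL2a replicate 1 or siGRHL2a replicate 3, and the 2 without siGRHL2a replicate 2. The 1 call in siSOX2b against siGRHL2a came without siSOX2b replicate 1 or 2.

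By adjusted p alone, the counts of 11, 15, 9 and 7 were 6, 8, 1 and 5 among genes without an overlapping gene, a set of fewer genes by construction, and 8 to 11, 9 to 14, 6 to 9 and 6 to 7 with 1 library left out, the 9 coming without siSOX2b replicate 3. The median log2FC of 0.0751 in siKLF5b against siNC1 was 0.0361 with at least 10 counts in every library and 0.0251 to 0.105 with 1 library left out, lowest without siNC1 replicate 2. That of 0.176 in siTP63b against siSOX2b was 0.144 among genes without an overlapping gene and 0.128 to 0.202 with 1 library left out. That of 0.0371 in siTP63b against siGRHL2a turned to -0.0288 among genes without an overlapping gene and ran from -0.0162, without siTP63b replicate 1, to 0.0872. That of -0.0937 in siSOX2b against siGRHL2a was -0.079 with RLE factors, -0.111 with upper-quartile scaling, -0.0816 in the 2 groups alone, -0.0755 with DESeq2 and -0.151 among genes without an overlapping gene, and -0.108 to -0.0611 with 1 library left out. The causes were not tested. Deviations of same-numbered libraries correlated at -0.0312 to 0.0345, so any pairing by replicate number was weak. In siSOX2b against siGRHL2a each library was nonetheless closest to the one of the same number. In siKLF5b against siNC1 none was, and the other comparisons were mixed. With the replicate block 2, 2, 1 and 0 genes were called, 11, 15, 10 and 7 passed by adjusted p alone, and the call of EPSTI1 was lost (edgeR adjusted p = 0.0596). No log2FC of a gene with values in every library changed its sign under the alternatives run.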
